A study of Homo sapiens with 5 samples.

Results

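The cytosolic ribosomal protein genes are described here in SW480 cells, an established line from a human primary colorectal adenocarcinoma, that had been grown as xenografts in zebrafish embryos. GFP-transfected parental SW480 cells were injected into the embryos, and tumors were dissected 1 day (1 dpi) and 4 days (4 dpi) after injection. At each time a pool of about 100 tumors was dissociated, and live cells were sorted by FACS into 384-well plates and measured by SORT-seq, which counts unique molecular identifiers (UMIs) at the 3′ ends of mRNAs, 1 cell per well. Libraries 6, 7 and 8 were the plates of 1 dpi and libraries 10 and 11 those of 4 dpi. Both groups shared the injected cells, embryos of 2 days post fertilization as hosts, which have innate but no adaptive immunity, and collection with the anoikis inhibitor Y-27632, DNase and Liberase, and the labels name no other treatment. Members were the genes listed in all 5 libraries whose symbol is RPL or RPS followed by a subunit number or by P and a number, which gave 82 genes, 51 of the large and 31 of the small subunit, of 15022 human genes kept. RPSA, RPL36AL, FAU and RACK1, which also encode ribosomal proteins or parts of them, were not matched by these letters. RPL21 was matched by a row on chromosome 10, while a row of the same symbol on chromosome 13 was not listed in all libraries.

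The cytosolic ribosome translates the mRNAs of the nucleus. Its small subunit binds the mRNA and reads the code, and its large subunit joins the amino acids. Each protein is encoded mostly by a single active gene, and most of the proteins are made in equal numbers and assembled with rRNA in the nucleolus. The mRNAs of ribosomal proteins are among the most abundant of a growing cell, and most begin with a C followed by a run of C and T bases, the terminal oligopyrimidine (TOP) tract through which the kinase mTOR and the protein LARP1 control their translation. A few members also have a paralog copy elsewhere in the genome, such as RPL22L1 for RPL22, whose product can take the place of the usual protein or act outside the ribosome.

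The annotated starts of the members called between 1 and 4 dpi, and of the 4 paralog copies with enough counts to be tested together with the genes they copy, are shown where the table held them because the tract at the start is the feature by which these mRNAs are known. They were taken from RefSeq on GRCh38.p14, in the sense of the gene, with 5 bases before the start and 20 from it, and the capitals mark a C at the start together with the unbroken run of C and T after it where that run had at least 4 bases.
RPL22, chr1:6199576-6199600, minus strand: acctcCCTTTCTaactccgctgccg
RPL22L1, chr3:170870176-170870200, minus strand: gcttcCTCTCTgctctcgcggccga
RPL26, chr17:8383174-8383198, minus strand: tagttCTCTTCCCTTTTgcggccat
RPL26L1, chr5:172958724-172958748, plus strand: gggtcggcgaacgaaacgcggagct
RPS27, chr1:153990757-153990781, plus strand: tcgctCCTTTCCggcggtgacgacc
RPS27L, chr15:63157458-63157482, minus strand: cgagcgcagatcgcttgcagcttgc
RPL7L1, chr6:42879611-42879635, plus strand: gcgccgtagctaggagcggacgcca
RPS25, chr11:119018324-119018348, minus strand: gcttcCTTTTTgtccgacatcttga
RPS23, chr5:82278335-82278359, minus strand: cttctCTCTTTCgctcaggcccgtg
RPS7, chr2:3575255-3575279, plus strand: tcctcctcgcgctgtttccgcctct
RPL27, chr17:42998414-42998438, plus strand: aggttagcggaagtgtccttctttc
RPS12, chr6:132814564-132814588, plus strand: gaggcCTCTTTCCCTgccgccgccg

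Of the 66 members with a start in the table, 46 (69.7%) had such a tract at an annotated start, read on the sense strand alone and anchored at the start. The same was true of 5.14% of the 27305 genes with a start in the table, of 7.33% of the 9450 such genes tested for a change, and of 8.70% of 69 genes of mitochondrial ribosomal proteins. A tract was found in 1 of the 5 paralog copies in the table, RPL22L1, and in 45 of the 61 other members. RPS7 and RPL27 had no tract at the start annotated in RefSeq, and the search covered only these annotated starts.

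Wells counted as cells, by the authors' filter, when over 2000 genes were found in them and mitochondrial UMIs stayed under 25%. They were 228, 142 and 163 at 1 dpi and 132 and 161 at 4 dpi, with 3789627 to 7503652 human UMIs per library and a median of 18823 to 36197 per cell. It is not stated whether each plate had its own pool of tumors, so that p-values cover the spread between plates, which may be technical. Flow cells are not given in the labels and were read from the run names. These carry 1 flow cell code for libraries 6, 7 and 10 and another for libraries 8 and 11. ERCC spike-in controls took 1.30% to 1.77% of the UMIs on the first flow cell and 2.72% and 3.57% on the second. Any step of plate preparation that was split in the same way cannot be told apart from the flow cell. All plates used the same 384 well names, and cells of the same name on different plates were as much alike (median correlation 0.681) as any cells of different plates (0.677). All 9 colorectal epithelial markers were detected, with a summed level of 4870 to 5964 counts per 1000000 human UMIs (CPM, scaled by TMM in tests of single genes) at 1 dpi and 4958 to 5133 at 4 dpi. The summed levels of 9 leukocyte, 6 erythroid, 6 muscle and 4 endothelial markers lay between 1.49 and 13.2 CPM in every library. Among them MPO, AIF1, ALAS2, MYH2 and CDH5 were not listed in any library and counted as 0. Reads were aligned to the human transcriptome alone, so these levels do not tell whether zebrafish host cells were sorted.

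The summed share of ribosomal protein mRNAs overlapped between the time points. Summed over the cells of a library, the 82 members took 12.9%, 13.4% and 13.9% of the human UMIs at 1 dpi (libraries 6, 7 and 8, in this order throughout) and 13.5% and 13.2% at 4 dpi (libraries 10 and 11). The share was thus 13.4% ± 0.466 (SD, n = 3) at 1 dpi and 13.4% ± 0.168 (SD, n = 2) at 4 dpi, and both libraries of 4 dpi lay within the range of those of 1 dpi. The log2 ratio of the means was -0.01, less than the SD of 0.04 between libraries of a time point. Without the mitochondrially encoded genes in the total, the share was 14.7%, 15.2% and 15.6% at 1 dpi and 15.3% and 15.1% at 4 dpi. Per UMI of the ERCC controls added to each well, the members gave 1389, 1592 and 1504 UMIs per 100 ERCC UMIs on the first flow cell (libraries 6, 7 and 10), and 775 and 655 on the second (libraries 8 and 11). On that scale the libraries separated by flow cell and not by time.

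The large subunit genes took a slightly larger part of the ribosomal protein UMIs at 4 dpi. There were 1.25, 1.29 and 1.27 UMIs of the 51 large subunit genes per UMI of the 31 small subunit genes at 1 dpi, and 1.31 and 1.35 at 4 dpi. Both libraries of 4 dpi thus lay above all 3 of 1 dpi, also within each flow cell, with means of 1.27 ± 0.0197 (SD, n = 3) and 1.33 ± 0.0338 (SD, n = 2). The difference was 0.07 on the log2 scale, and it was not tested, since an exact permutation test of 3 against 2 libraries cannot give a p below 0.1. Neither part moved clearly alone, since the large subunit took 7.19%, 7.56% and 7.76% of all UMIs at 1 dpi and 7.64% and 7.62% at 4 dpi, and the small subunit 5.75%, 5.86% and 6.11% at 1 dpi and 5.84% and 5.62% at 4 dpi. Without the 5 members with the most UMIs, RPS27A, RPL41, RPS6, RPL10 and RPS2, the libraries overlapped, with 1.43, 1.45 and 1.41 at 1 dpi and 1.44 and 1.51 at 4 dpi. This last choice was made after the values were seen.

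**Figure D1:**
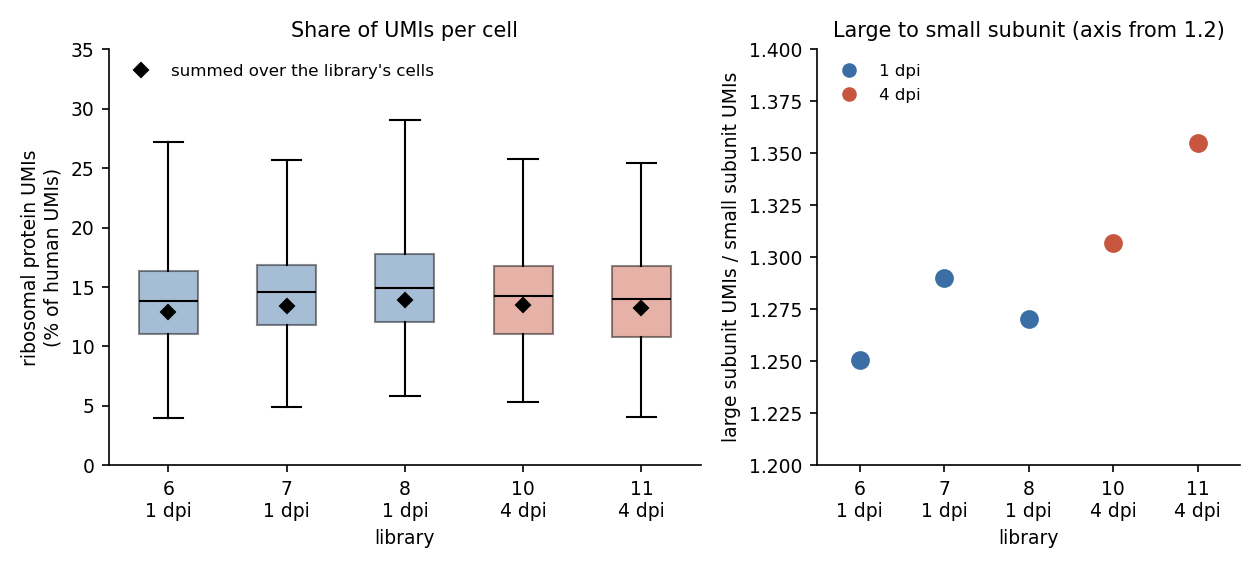
Left, ribosomal protein UMIs as a percentage of the human UMIs of each cell, by library, with 1 dpi in blue and 4 dpi in red; boxes give the quartiles and the median, whiskers the lowest and the highest cell, and diamonds the share summed over the library, which lies between 12.9% and 13.9% in all 5. Right, the ratio of large to small subunit UMIs of each library, on an axis that starts at 1.2; the 4 dpi libraries, at 1.31 and 1.35, lie above the highest of 1 dpi, at 1.29.

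Within a plate the cells differed far more than the plates did. The share of ribosomal protein UMIs ran from 3.96% to 27.2% over the cells of library 6 and from 4.08% to 25.4% over those of library 11, with medians of 13.8%, 14.6% and 14.9% for the plates of 1 dpi and 14.2% and 14.0% for those of 4 dpi. The SD over cells was 3.94, 3.95 and 4.44 percentage points at 1 dpi and 4.45 and 4.58 at 4 dpi. With every cell thinned to 5000 UMIs the SD was 3.93 to 4.62 points, where counting error alone would give between 0.487 and 0.507. The subunits moved together from cell to cell, with a correlation between 0.921 and 0.960 within the plates on thinned cells (130 to 226 cells a plate, both shares from the same library and the same total). Cells above their library's median of UMIs had a lower median share than the other cells in all 5 libraries, for example 12.7% against 15.1% in library 6 and 13.4% against 15.3% in library 11. Cells with a mitochondrial share above their library's median had a higher median share of ribosomal protein UMIs than the other cells in 4 libraries, with 14.9% against 12.2% in library 6, 15.1% against 14.1% in library 7, 14.5% against 13.6% in library 10 and 14.4% against 13.2% in library 11, and a slightly lower one in library 8 (14.9% against 15.1%). Among the UMIs that were not mitochondrial, a total that is smaller in such cells by construction, the values were 17.6% to 18.0% against 13.4% to 16.7%. The part of depth and of the mitochondrial share in this spread was not tested further.

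Most members were seen in nearly every cell. A UMI was found in at least 99% of the cells of every library for 62 of the 82 members and in at least 95% for 72. The 8 members found in under 80% of the cells of some library were RPS26, RPL21 and the copies RPL7L1, RPL10L, RPL22L1, RPL26L1, RPL39L and RPS27L. The RPL21 row, on chromosome 10, held 32 UMIs, fewer than the 259 of RPL21P28, a copy elsewhere in the genome. No source says how reads that match several copies were counted, so this low count cannot be read as low expression of RPL21. Among thinned cells, the 71 members with a mean of at least 2 UMIs had a median variance-to-mean ratio of 2.28 (quartiles 1.87 and 2.79), and the 217 other genes at that level a median of 1.88 (quartiles 1.46 and 3.14). The ratio was lowest for RPL24 (1.27) and RPS9 (1.39) and highest for RPL41 (5.30), RPL10 (4.00), RPS23 (3.57) and RPS27A (3.57). The mean UMIs per thinned cell were 2.75 for RPL24 and 3.72 for RPS9. They were 22.9 for RPL41, 20.5 for RPL10, 13.8 for RPS23 and 23.4 for RPS27A. Neither these ratios nor the medians were adjusted for the mean.

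Between 1 and 4 dpi, few single members were called. All changes are of mRNA UMIs, and no protein was measured in these libraries. UMIs were summed per library and compared with edgeR's quasi-likelihood test over 12646 genes, in which 79 members had enough counts. RPL10L, RPL21 and RPL39L, with 33, 32 and 14 UMIs over all passing cells, were not tested. At an adjusted p under 0.05 (Benjamini-Hochberg), 8 members were called (10.1%), against 27.6% of all genes. There were 2 that rose, against 13.4% of all genes, and 6 that fell, against 14.2%. DESeq2 gave 2 higher, against 9.34% of all genes, and 6 lower, against 10.3% (19.6% in either direction). Its 2 higher members were not the same pair, since RPS27L was not called and a large subunit gene was. By subunit, 3 of 48 large and 5 of 31 small subunit genes were called. The median log2 change was -0.03, with quartiles of -0.15 and 0.05, against a median of 0.00 and quartiles of -0.29 and 0.33 over all genes, and the changes of members ran from -0.54 to 0.33. Since members have many counts, they were also set beside the 217 other genes with at least 400 CPM, of which 93 were called (42.9%), with quartiles of -0.28 and 0.15. Of the 71 members at that level, 5 were called, with quartiles of -0.15 and 0.04. In 9 of the 79 tested members both 4 dpi libraries lay above all of 1 dpi, a smaller share than the 27.0% of all genes. In 21 they lay below, close to the 27.6% of all genes.

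Among the genes of the small subunit, RPS25, RPS23 and RPS7 fell. RPS25, which several viral RNAs need to start translation at an internal site, had 1385, 1280 and 1439 CPM at 1 dpi and 1085 and 973 at 4 dpi. All 1 dpi libraries thus lay above both of 4 dpi, with a log2 change of -0.41 ± 0.09 (SE; edgeR adjusted p = 0.00331), and the call held whichever library was left out. RPS23, which sits at the decoding centre, had 2789, 2587 and 2824 at 1 dpi and 2313 and 2079 at 4 dpi. The groups did not overlap, and the log2 change was -0.32 ± 0.09 (edgeR adjusted p = 0.0119). Without library 11 it was -0.24 and not called (edgeR adjusted p = 0.108). RPS7, known to bind the p53 regulator MDM2, had 3230, 3458 and 3558 at 1 dpi and 2710 and 2843 at 4 dpi. Its log2 change was -0.30 ± 0.08 (edgeR adjusted p = 0.0129), or -0.26 and not called without library 10 (edgeR adjusted p = 0.0753).

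RPS12, a small subunit gene, was the member of the usual ribosome that rose. It had 2996, 3113 and 3131 CPM at 1 dpi and 3891 and 3375 at 4 dpi. The groups did not overlap, but the libraries of 4 dpi differed from each other more than those of 1 dpi did, and the log2 change was 0.24 ± 0.08 (edgeR adjusted p = 0.0449). Leaving out a library ended the call in 4 of 5 cases, without library 6 (0.22), 7 (0.25), 8 (0.25) or 10 (0.13). Within the flow cells the change was 0.35 and 0.11, and with thinned cells it was not called (0.24, edgeR adjusted p = 0.109). Among the large subunit genes, RPL27 fell. It had 1031, 1212 and 1048 at 1 dpi and 918 and 856 at 4 dpi, a log2 change of -0.31 ± 0.09 (edgeR adjusted p = 0.0226). It was no longer called when library 7 (-0.22) or library 11 (-0.26) was left out or with thinned cells (-0.29, edgeR adjusted p = 0.0761).

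The paralog copies held 3 of the 8 calls, with 4 copies tested, and 5 of the 75 other members were called (6.67%), beside 27.6% of all genes. A count over 4 genes shows nothing particular to the copies. RPL22L1, whose product resembles the RNA-binding protein RPL22, had 128, 141 and 126 CPM at 1 dpi and 89.9 and 90.5 at 4 dpi. The groups were well apart, and its log2 change of -0.54 ± 0.10 (edgeR adjusted p = 0.00141) was called whichever library was left out. With cells thinned to 5000 UMIs it was smaller, at -0.35, and not called (edgeR adjusted p = 0.185). RPL22 itself had 966, 1045 and 1039 at 1 dpi and 1038 and 969 at 4 dpi, and its change of -0.02 was not called (edgeR adjusted p = 0.898). Per 100 UMIs of RPL22 there were thus 13.3, 13.5 and 12.1 UMIs of RPL22L1 at 1 dpi and 8.66 and 9.35 at 4 dpi.

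RPL26L1, the copy of RPL26, had 102, 91.7 and 90.1 CPM at 1 dpi and 67.2 and 77.0 at 4 dpi, a log2 change of -0.40 ± 0.12 (edgeR adjusted p = 0.0179). It was no longer called when library 6 (-0.33) or library 10 (-0.30) was left out or with thinned cells (-0.43, edgeR adjusted p = 0.142), and within the flow cells the change was -0.53 and -0.23. RPL26 also lay lower in both 4 dpi libraries, at 1600, 1708 and 1591 against 1456 and 1464, with a change of -0.16 that was not called (edgeR adjusted p = 0.157). RPS27L, a known p53 target that resembles RPS27, had 63.1, 64.5 and 58.8 at 1 dpi and 75.3 and 81.4 at 4 dpi. Its log2 change was 0.33 ± 0.11 (edgeR adjusted p = 0.0363), and it was not called when any of the libraries was left out (0.35 without library 6, 0.36 without 7, 0.30 without 8, 0.39 without 10 and 0.27 without 11), nor with DESeq2 (adjusted p = 0.0894) or with thinned cells (0.20, edgeR adjusted p = 0.523). RPS27 had 1463, 1357 and 1393 at 1 dpi and 1751 and 1423 at 4 dpi, so that the groups overlapped (log2 change 0.18, edgeR adjusted p = 0.179), and it was called without library 11 (0.31).

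RPL7L1, which resembles RPL7, had 49.1, 55.6 and 52.1 at 1 dpi and 60.7 and 63.7 at 4 dpi, without overlap. Its change of 0.25 ± 0.12 was not called (edgeR adjusted p = 0.122), nor was that of RPL7 (-0.13, edgeR adjusted p = 0.255), with 1350, 1501 and 1453 at 1 dpi and 1297 and 1318 at 4 dpi. RPL10L had between 2 and 9 UMIs in a library and RPL39L 2 or 3, beside 4594 to 23962 of the genes they copy. RPL3 had 1423, 1551 and 1749 CPM at 1 dpi and 1423 and 1641 at 4 dpi, and its copy RPL3L was not listed in all libraries.

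The genes of the P stalk and of the particle with RPL5 and RPL11, and RPS6, RPS27A, RPL41, RPL39, RPS29 and RPS4X, were not called. The P stalk, which recruits elongation factors, had small changes of 0.09 (RPLP0), 0.14 (RPLP1) and -0.01 (RPLP2), each with a standard error of 0.08 to 0.10. RPLP1 alone lay higher in both 4 dpi libraries, with 3348, 3681 and 3510 CPM at 1 dpi and 3881 and 3853 at 4 dpi (edgeR adjusted p = 0.211). RPL5 and RPL11, which bind MDM2 together with a small rRNA when assembly fails, had changes of -0.22 and -0.04. RPL5 lay lower in both 4 dpi libraries (3109, 2656 and 2757 against 2502 and 2378, edgeR adjusted p = 0.0743). RPS6, the substrate of the S6 kinases downstream of mTOR, had 4164, 3898 and 4046 at 1 dpi and 3636 and 3337 at 4 dpi, a change of -0.21 (edgeR adjusted p = 0.0634).

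RPS27A, which is made as a fusion with ubiquitin, had 4550, 4195 and 4337 CPM at 1 dpi and 4213 and 3779 at 4 dpi, a change of -0.13 (edgeR adjusted p = 0.274). RPL41, the shortest of the ribosomal proteins, had 3768, 4003 and 3797 at 1 dpi and 4846 and 3980 at 4 dpi. Only library 10 stood above the 1 dpi libraries, and its change of 0.19 (edgeR adjusted p = 0.120) became 0.33 and was called without library 11. The other short proteins RPL39 and RPS29 had changes of -0.17 and 0.01. RPS4X, encoded on the X chromosome, had 1462, 1745 and 2143 at 1 dpi and 1577 and 1625 at 4 dpi, within the range of 1 dpi. RPL10, also X-linked, had 3205, 3689 and 4370 at 1 dpi and 4134 and 4353 at 4 dpi (log2 change 0.18, edgeR adjusted p = 0.226), and without library 8 it was 0.30 and called.

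For 6 members the flow cells differed by more than 0.25 on the log2 scale, with time taken into account, and these were chosen after their values were seen. RPL17 differed by 0.83, with 613, 728 and 405 CPM on the first flow cell (libraries 6, 7 and 10) and 962 and 894 on the second. RPS10 differed by 0.57, with 141, 180 and 137 on the first flow cell and 239 and 200 on the second. RPL36A differed by 0.53, with 226, 325 and 305 and then 410 and 421. In these 3 genes, and also in RPS18 and RPS9, the flow cells did not overlap, while the time points did. The same held for RPL3, RPL24 and RPL29, and also for RPL10, RPL19 and RPS19, whose differences were smaller. RPL35 was split in the same way, but with lower values on the second flow cell (-0.17). How often this occurred over all genes was not counted, so these values do not tell whether it was particular to these members. The difference was 0.40 for RPS18, 0.32 for RPS9 and 0.28 for RPS26, and the 73 other members lay between -0.17 and 0.25. With the flow cell as a term in the edgeR fit, 2 members were called higher and 7 lower. Many ribosomal protein genes have near-identical processed copies in the genome, and no source used here says how reads that match several copies were counted. The 27 rows of processed copies in the files held 3451 UMIs, or 0.102% of the 3391144 of the members.

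**Figure D2:**
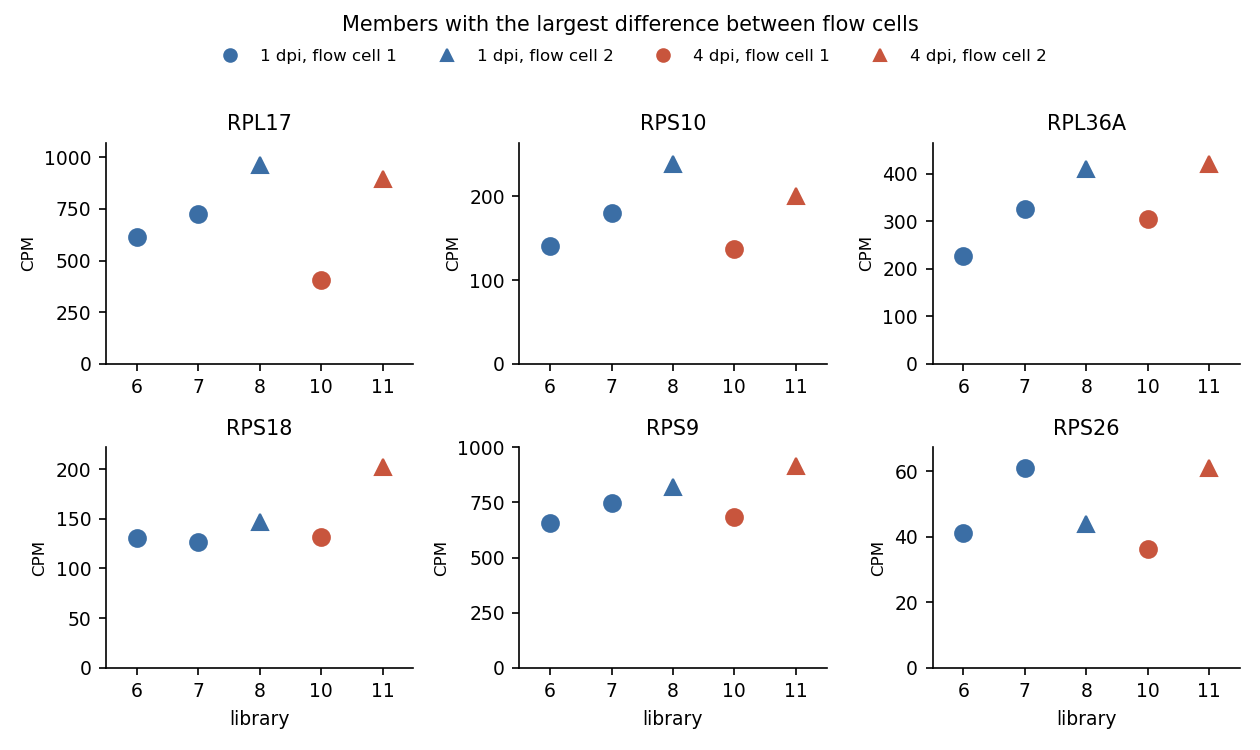
CPM (TMM-scaled) in each library of the 6 members with the largest difference between flow cells, with 1 dpi in blue, 4 dpi in red, circles for the first flow cell and triangles for the second; each axis starts at 0. For RPL17, RPS10, RPL36A, RPS18 and RPS9 both triangles lie above all circles.

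Larger single changes than those of the members were found among mitochondrial ribosomal proteins, ribosome biogenesis genes and regulators of translation. Of 76 genes of mitochondrial ribosomal proteins, which build the separate ribosome of that organelle, 15 rose and 9 fell (31.6% called, near the 27.6% of all genes), with a median change of 0.00, as over all genes. They ran from MRPS28 (-0.68 ± 0.18, edgeR adjusted p = 0.0104) to MRPL27 (0.81 ± 0.14, edgeR adjusted p = 0.000561). MRPL27 had 26.9, 30.4 and 24.8 CPM at 1 dpi and 45.8 and 50.2 at 4 dpi, and MRPS28 had 25.3, 25.8 and 29.2 at 1 dpi and 18.9 and 14.3 at 4 dpi. Without library 11, MRPS28 was not called (-0.50, edgeR adjusted p = 0.119).

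Of 27 ribosome biogenesis genes, 1 rose and 9 fell (37.0% called, beside 27.6% of all genes, of which 13.4% rose and 14.2% fell), with a median of -0.23 beside 0.00. The largest fall among them was that of LTV1, a factor for the assembly and export of the small subunit, with 151, 146 and 144 at 1 dpi and 81.3 and 71.3 at 4 dpi (-0.94 ± 0.11, edgeR adjusted p = 1.82e-05). PES1, of a complex that matures the rRNA of the large subunit, was the gene that rose (0.44 ± 0.13, edgeR adjusted p = 0.0190), and it was not called when library 6 (0.40), 8 (0.42) or 11 (0.29) was left out. MYC, on this list as a regulator of ribosome synthesis and named after its values were seen, also fell, from 326, 427 and 380 at 1 dpi to 247 and 219 at 4 dpi (-0.69, edgeR adjusted p = 0.000398).

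Of 24 other mRNAs known to carry a TOP tract, mostly of translation factors, 2 rose and 1 fell (12.5% called, below the 27.6% of all genes), with a median of -0.03. RACK1, a protein of the small subunit, fell by 0.22 (edgeR adjusted p = 0.0444), with 2672, 2663 and 2679 at 1 dpi and 2245 and 2328 at 4 dpi. GLTSCR2, a nucleolar protein, rose by 0.37 (edgeR adjusted p = 0.0476), and the elongation factor EEF2, named after its values were seen, rose by 0.25 (edgeR adjusted p = 0.0495). The calls of EEF2 (0.18 to 0.30) and RACK1 (-0.25 to -0.20) ended whichever library was left out, and that of GLTSCR2 without library 6 (0.28), 7 (0.34) or 11 (0.14). Of 15 regulators of translation, 2 rose and 1 fell (20.0% called), with a median of -0.01. RPS6KB2, a kinase of RPS6, rose by 0.63 ± 0.13 (edgeR adjusted p = 0.00259), with 29.7, 30.2 and 32.5 at 1 dpi and 44.6 and 50.7 at 4 dpi. TSC1, an inhibitor of mTOR, had the lowest change (-0.42), which was not called (edgeR adjusted p = 0.181) except without library 11 (-0.86).

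**Figure D3:**
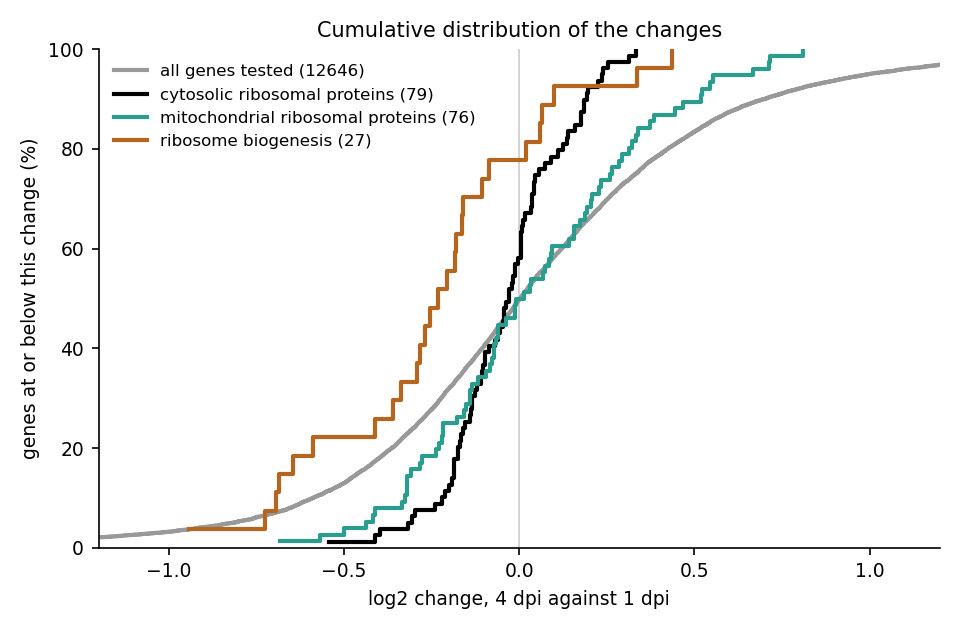
Percentage of genes at or below each log2 change from 1 to 4 dpi, for all 12646 genes tested (grey), 79 cytosolic ribosomal proteins (black), 76 mitochondrial ribosomal proteins (green) and 27 ribosome biogenesis genes (brown); the horizontal axis ends at 1.2 on both sides. The black line is the steepest, with its quartiles at -0.15 and 0.05, and the brown line lies to the left, with a median of -0.23.

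The change was set beside the tract at the start and the length of the transcript. Members with a tract had a median log2 change of -0.01 (45 tested), and those with a start in the table and no tract -0.04 (19 tested). The lengths of the canonical transcripts in GENCODE 44 ran from 295 to 7573 bases. Across the 79 members the rank correlation of this length with the change was 0.03, and across 11594 other genes it was -0.13. These are descriptions across genes of the same 5 libraries, and genes are not independent replicates.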

How the data were processed

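Single SW480 cells from zebrafish xenografts were measured by SORT-seq on 5 plates. Per the labels and the study's methods, the authors read the well barcode and UMI from the first read, aligned the second to the human reference transcriptome with BWA, of which no version is stated, and deposited a table of UMI counts (1 row per gene, 1 column per well, not normalized). The submitters' processing notes name hg38. Genes listed in all 5 libraries and found in at least 10 wells with 200 genes or more were kept, and wells were taken as cells above 2000 genes and below 25% mitochondrial UMIs, ERCC counts included in both limits (533 at 1 dpi and 293 at 4 dpi). No doublet caller was run.

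Each plate was taken as 1 sample. UMIs of its cells were summed and tested with edgeR 4.0.16 (TMM, filterByExpr, glmQLFit and glmQLFTest) in R 4.3.3, with 4 dpi against 1 dpi as the only term, Benjamini-Hochberg adjustment over all 12646 genes and a threshold of 0.05. The TMM factors lay between 0.982 and 1.02. The fit was tested on simulated counts. Shares and ratios are values with no test. Alternatives were DESeq2 1.42.0, 5 other scalings, a fit with no count filter, a term for the flow cell, other cell filters, cells thinned to 5000 UMIs and each library left out. Starts came from a RefSeq table, which held 66 of the 82 members, and lengths from GENCODE 44.

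Named members were the called ones (up to 8 in each direction), the paralog copies with the genes they copy, proteins of known particular roles and the extremes of each comparison list. Members and lists were chosen with earlier results of these data known. The P stalk proteins were counted with the large subunit.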

Additional observations from a re-analysis of the deposited data

How the results depend on the processing

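No paired analysis was possible because the groups share no replicate numbers. Both flow cells held both time points, and with the flow cell as a term 2 members were called higher and 7 lower. With 3 against 2 libraries, and with a single library of 4 dpi when the other was left out (assumed then to vary like those of 1 dpi), the calls near the threshold depend on single plates. The number of members called lower was 4 to 7 in all fits but the one scaled to ERCC UMIs, and the difference in the ratio of large to small subunit kept its direction in every alternative (0.04 to 0.09 on the log2 scale). With libraries left out, members called higher were 0 (without library 6; 3 at an unadjusted p under 0.05 in edgeR) to 3 (without library 11), large subunit genes called higher 0 to 1 and small 0 to 2. The mitochondrial list then had 8 to 13 higher and 4 to 10 lower, the other TOP mRNAs 0 to 1 higher and 0 to 1 lower, biogenesis 0 to 1 higher and regulators 1 to 2 higher. The signs of uncalled changes near 0 then turned for RPL11 (-0.11 to 0.019), RPL22 (-0.069 to 0.027), RPL3 (-0.15 to 0.061), RPLP2 (-0.053 to 0.022) and RPS29 (-0.080 to 0.087).

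Scaling to ERCC UMIs moved the median of all genes to -0.20, with 3 of 12646 genes called in edgeR and 0 members (0 at an unadjusted p under 0.05). All lists then had 0 called higher and 0 lower. The medians were -0.22 for members, -0.21 for the large and -0.25 for the small subunit, -0.16 for the mitochondrial list, -0.24 for other TOP mRNAs, -0.48 for biogenesis and -0.25 for regulators, the log2 ratio of the summed share was -0.21, and RPLP0 (-0.11), RPLP1 (-0.060) and RPS29 (-0.15) turned sign. Library totals without TMM, totals without mitochondrially encoded genes and the ribosomal protein UMIs as the library size each gave 4 members called higher, 2 of them of the large subunit, and 0 other TOP mRNAs lower (4 higher with the second). RPL22 then turned to 0.0068, 0.014 and 0.012 and RPLP2 to 0.014, 0.022 and 0.020.

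With no filter on low counts, 0 members were called higher in edgeR (5 at an unadjusted p under 0.05), so 0 of the small subunit, with 0 other TOP mRNAs higher and RPS29 at -0.012. The flow cell as a term gave 1 other TOP mRNA higher and 0 lower, and more than 1000 genes per cell gave 1 large subunit gene higher. A mitochondrial maximum of 15% gave 1 member higher (1 of the small subunit), 9 mitochondrial genes and 0 other TOP mRNAs higher and RPS29 at -0.074. No such maximum gave 0 members higher (9 at an unadjusted p under 0.05), 0 of the small subunit, 2 other TOP mRNAs lower and a log2 ratio of the summed share of -0.051. Thinned cells, with 8846 genes tested, gave 0 members higher (4 at an unadjusted p under 0.05), 0 large subunit genes lower, 0 small higher, 4 mitochondrial genes higher and 3 lower, 0 and 0 other TOP mRNAs, 0 and 5 of biogenesis and 1 and 0 regulators, with a share ratio of -0.054, RPLP2 at 0.0060 and RPS29 at -0.084. DESeq2 called 2482 genes against 3485 in edgeR. It called 2 members higher and 6 lower, with 1 of the large and 1 of the small subunit higher, so not the same pair as in edgeR. It called 8 mitochondrial genes, 0 other TOP mRNAs and 0 of biogenesis higher. The mean of the cells' shares gave a ratio of -0.054, and the second flow cell alone -0.067, with a median of 0.14 for regulators. The causes were not tested.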

Other observations

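FAU, RPL36AL and RPSA, ribosomal protein genes that the members' letters did not match, were looked at after their values were seen, and were not called. FAU, whose product is cut into a ubiquitin-like protein and the small subunit protein eS30, had 865, 974 and 875 CPM at 1 dpi and 1041 and 1033 at 4 dpi. Both 4 dpi libraries lay above all of 1 dpi, but the log2 change of 0.20 did not pass the threshold (edgeR adjusted p = 0.103). RPL36AL, the close copy of RPL36A, had 190, 238 and 219 at 1 dpi and 212 and 244 at 4 dpi. RPSA, a protein of the small subunit that is also known as a laminin receptor, had only 23 to 56 UMIs in a library, and its change of -0.15 was not called (edgeR adjusted p = 0.767). As the counting of reads that match several copies is not stated, this low count cannot be read as low expression.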
